A study of Mus musculus with 10 samples.

Results

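The angiopoietin and Tie genes are *Tie1* and *Tek*, which encode the Tie receptors of the endothelium, *Angpt1* and *Angpt2*, which encode their ligands, *Ptprb*, which encodes the vascular endothelial phosphatase VE-PTP, and *Foxo1*, which encodes a transcription factor downstream of the receptors. They were chosen by name for their place in the pathway, with earlier results of these data known. All 6 had a row among the 27024 rows with a gene name. bEnd.3 is an immortalised mouse brain endothelial line of wild-type genotype, and StcE is a bacterial protease that cuts mucin-domain glycoproteins. RNA was measured in 10 samples, of which 5 had received saline (numbered 1 to 5) and 5 had received StcE at 5 nM (numbered 1, 2, 3, 5 and 6), each for 16 h, with no group given an inactive enzyme. Levels are FPKM, the fragments on a gene per kilobase of its length, scaled to the depth of the sample. All samples came from a single cell line in culture, without blood flow, mural cells or astrocytes, and the sources do not say whether the replicates were independent cultures, so p-values measure only the spread between these samples.

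Angiopoietin-1, made mostly by pericytes and smooth muscle cells, binds TEK (also called TIE2), switches on its kinase and keeps endothelium quiescent and its junctions tight. Angiopoietin-2, made and stored by endothelial cells, competes for the same receptor and acts as a weak or context-dependent agonist. TIE1 binds neither ligand directly with high affinity and modulates TEK in a shared complex, whereas VE-PTP removes phosphate from TEK. Active TEK signals through PI3K and AKT, which keep FOXO1 out of the nucleus, and nuclear FOXO1 induces *Angpt2*.

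On GRCm38 (GENCODE vM21), *Tie1* lies on chromosome 4 (118471191 to 118490061, minus strand), *Tek* on the same chromosome (94739289 to 94874976, plus strand), *Angpt1* on chromosome 15 (42424723 to 42676977, minus strand), *Angpt2* on chromosome 8 (18690263 to 18741562, minus strand), *Ptprb* on chromosome 10 (116275523 to 116389535, plus strand) and *Foxo1* on chromosome 3 (52268336 to 52353221, plus strand). All are protein-coding genes. No stretch of 75 bases in the longest transcript of any of them occurred in a transcript of another gene. Genes on the opposite strand overlap 14.2% of the exon length of *Angpt1* and 7.78% of that of *Foxo1*, and the strand setting used for counting is not given in the sources used here.

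*Tie1* and *Tek* were the genes of the group that fell after StcE, so the sequence before each gene is shown. RefSeq windows of 300 bases around the start (GRCm38.p6) were matched for 3 of the 6 genes, *Tie1*, *Tek* and *Foxo1*. The bases before the annotated GENCODE start are printed 5′ to 3′ on the strand of the gene, with matches to the ETS core GGAA, on either strand, in capitals. The *Tek* sequence is chr4:94739039-94739288 and the *Tie1* sequence is chr4:118490062-118490099.
Tek: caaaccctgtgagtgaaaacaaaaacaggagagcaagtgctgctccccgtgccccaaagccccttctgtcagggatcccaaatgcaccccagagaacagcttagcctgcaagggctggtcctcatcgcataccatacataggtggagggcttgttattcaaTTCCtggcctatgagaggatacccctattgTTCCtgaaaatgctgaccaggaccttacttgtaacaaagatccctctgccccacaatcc
Tie1: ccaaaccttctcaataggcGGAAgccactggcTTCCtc
The *Tie1* stretch is short because the other 262 bases of its window lie after the start that GENCODE annotates. Over the whole windows, GGAA occurred 9 times for *Tie1* and 2 times each for *Tek* and *Foxo1*. Before the GENCODE start it occurred 2 times for each of the 3 genes, in 38 bases for *Tie1*, 250 for *Tek* and 249 for *Foxo1*. At least 1 match was present in 96.0% of the 32851 windows of all genes, with a median of 3 matches, and 1.59% of the windows had at least 9. The GATA motif AGATAA occurred 1 time in the *Tek* window, 36 bases after the start, and 11.2% of all windows hold it. The FOXO motif GTAAACA, held by 3.65% of windows, and the hypoxia-inducible factor core ACGTG, held by 19.6%, were searched on both strands in the same way and had no match in the *Tie1*, *Tek* and *Foxo1* windows. No match overlapped a match of another motif.

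bEnd.3 cells held RNA of the receptors, the phosphatase, the endothelial ligand and the transcription factor, but next to none of *Angpt1*. These RNA levels do not show the amount of receptor protein or its phosphorylation. With saline, mean levels ran from *Tie1* (134.8 ± 5.15 FPKM) through *Ptprb* (48.3 ± 3.28), *Tek* (17.9 ± 0.751) and *Angpt2* (13.96 ± 0.811) to *Foxo1* (12.6 ± 0.696, SD, n = 5 each). *Tie1* stood at the 96.7th percentile of the 11062 tested genes, those whose FPKM averaged 1 or more, and *Foxo1* at the 61.0th percentile. In the saline samples the ranges of *Angpt2* and *Foxo1* overlapped, and all other neighbours in this order were apart. In the StcE samples it was *Tek* and *Angpt2* whose ranges overlapped, with *Tek* the higher in 3 of 5 samples against 5 of 5 with saline.

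*Angpt1*, the activating ligand, was listed at 0 in 9 of the 10 samples. Saline replicate 5 was the exception, at 0.00791 FPKM, which corresponds to 1 recovered fragment. At this depth 3 fragments on *Angpt1* would correspond to 0.0165 to 0.0251 FPKM per sample, so that no difference between the groups was detectable. The gene was left out of the limma test, and a permutation test on 1 fragment could not show a difference. *Angpt4*, the other gene named as an angiopoietin, was also near 0, at 0.0538 ± 0.0155 FPKM with saline and 0.0514 ± 0.0311 with StcE (SD, n = 5 each). The other 5 genes passed the filter on low FPKM and rested on 1110 (*Angpt2*) to 20998 (*Tie1*) fragments per sample. The recovered totals per sample were 21432799 to 28372078 fragments with saline and 21378911 to 32417898 with StcE.

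The labelled cell type was checked against its markers. All 10 endothelial markers had a mean above 1 FPKM, led by *Cdh5* (VE-cadherin), and *Vwf* was the lowest of them at 1.42 ± 0.675 FPKM with saline (SD, n = 5). Of 9 pericyte and smooth muscle markers with a row, 6 had a mean under 0.1 FPKM, among them *Cspg4* and *Des*, which were listed at 0 in several samples, *Acta2* was the highest at a mean of 3.14, and the sum was 2.34 to 5.32 FPKM with saline and 2.84 to 4.78 with StcE. Fibroblast markers summed to 1.197 to 1.54 FPKM, and those of glia and neurons to 0.111 to 0.277, over all samples. The leukocyte and microglia list was carried by *Cd68*, a lysosomal protein gene found in many cell types, at a mean of 20.1 FPKM, and 4 of its 5 genes with a row were under 0.1, among them the defining marker *Ptprc*. The summed endothelial markers were slightly lower after StcE, 1899 to 2027 FPKM with saline against 1861 to 1926 with StcE (exact two-sided permutation test, p = 0.0476). Of these 10 genes 3 fell and 1 rose (limma adjusted p under 0.05), where 6.41% of all tested genes fell and 5.52% rose. In bulk RNA, fewer cells of a type and less RNA per cell cannot be told apart.

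Both Tie receptor genes fell after StcE. *Tie1* had 139.0, 135.9, 135.4, 137.7 and 125.9 FPKM in saline replicates 1 to 5 and 116.0, 117.0, 117.6, 121.9 and 122.5 in StcE replicates 1, 2, 3, 5 and 6. The groups did not overlap, and the lowest saline sample, replicate 5, was close to the StcE range. On the log2(FPKM + 1) scale, which slightly understates changes of low genes, the difference was -0.18 (standard error 0.0294, limma adjusted p = 0.00295), and the mean FPKM fell by 11.7%.

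*Tek* had 18.3, 18.7, 17.4, 18.4 and 16.9 FPKM in the saline samples and 13.2, 15.9, 14.8, 15.8 and 15.6 in the StcE samples, in the same order of replicates. Here too the groups were apart, and StcE replicate 1 stood lowest. The mean went from 17.9 ± 0.751 to 15.1 ± 1.12 FPKM (SD, n = 5 each), and fell by 16.0%. The log2 difference was -0.24 (standard error 0.0479, limma adjusted p = 0.00857). The exact two-sided permutation test gave p = 0.00794 for *Tie1* and for *Tek*, the smallest p that 5 samples against 5 allow.

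**Figure D1:**
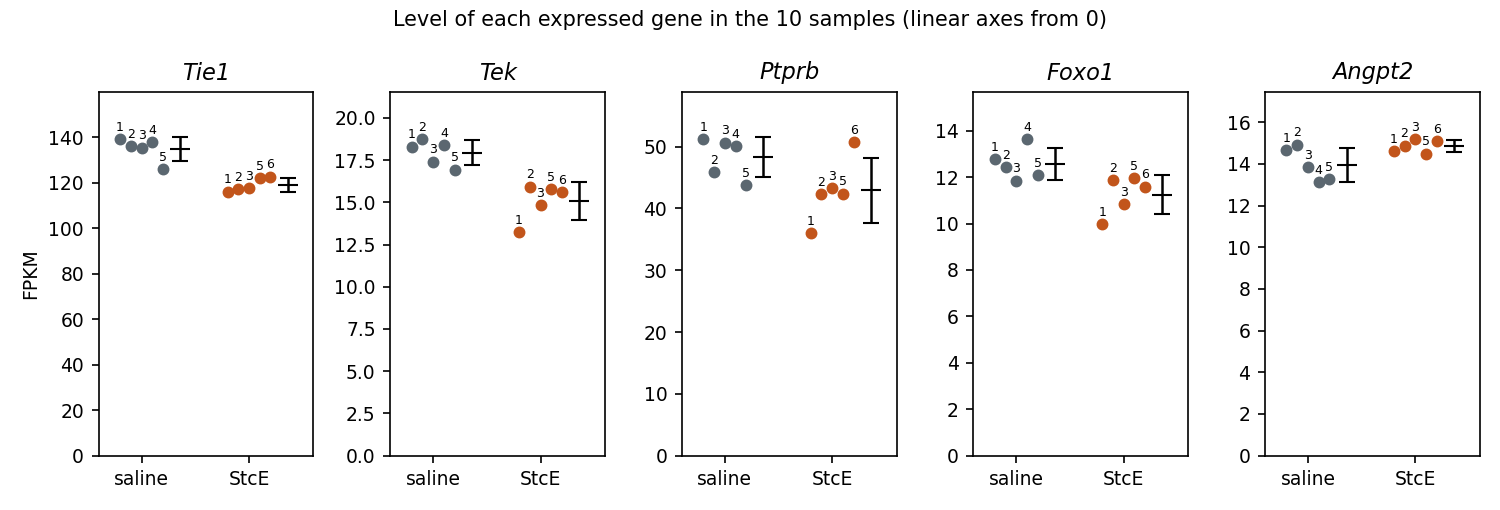
FPKM of the 5 expressed genes in each sample of bEnd.3 cells, with saline samples in grey and StcE samples in orange. Numbers are replicates, the bars beside the points are mean ± SD (n = 5), and all axes start at 0. The groups are apart for *Tie1* (lowest saline sample 125.9, highest StcE sample 122.5) and *Tek* (16.9 against 15.9) and overlap for the other 3 genes.

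Set against the whole table, 2 of the 5 tested genes of the group passed the threshold, where 11.9% of all 11062 tested genes did (709 lower and 611 higher after StcE). In the lower direction the share over all genes was 6.41% and in the higher direction 5.52%. The groups did not overlap for 10.7% of all tested genes, 5.8% lower and 4.85% higher after StcE. The split over all genes moved to 518 lower and 272 higher when samples were rescaled to an equal sum of FPKM, and to 139 lower and 552 higher relative to the mean of the endothelial markers. *Tie1* remained past the threshold on both scales. Relative to the endothelial markers, the difference was -0.13 for *Tie1* (limma adjusted p = 0.0459) and -0.19 for *Tek* (adjusted p = 0.0513), both close to the threshold. With the main settings the differences were -0.18 and -0.24. Ordered by log2 difference from the lowest, *Tek* was at rank 231 and *Tie1* at rank 492 of 11062. The share of 2 of the 5 genes is not independent support, because the genes were chosen with earlier results of these data known. The paper had already named *Tie1* among the genes lower after StcE.

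*Ptprb* had 51.1, 45.8, 50.6, 50.1 and 43.8 FPKM in the saline samples and 36.0, 42.3, 43.3, 42.4 and 50.7 in the StcE samples. The spread was wide, with 4 StcE samples below all saline samples and StcE replicate 6 within the upper part of the saline range. The log2 difference was -0.17 (95% interval -0.34 to -0.0071) and did not pass the threshold over all genes (limma adjusted p = 0.164). The value rested on single samples in both directions. Without StcE replicate 6 the difference was -0.23 and passed (limma adjusted p = 0.0386), and without StcE replicate 1 it was -0.11 (limma adjusted p = 0.301).

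*Foxo1* had 12.8, 12.4, 11.8, 13.6 and 12.1 FPKM in the saline samples and 9.98, 11.9, 10.8, 11.95 and 11.6 in the StcE samples. The means were 12.6 and 11.2 FPKM, and the groups overlapped slightly, with 3 StcE samples below all saline samples. The log2 difference of -0.15 (95% interval -0.26 to -0.038) did not pass the threshold (limma adjusted p = 0.0798), except when the recovered fragments were tested with voom (adjusted p = 0.0361).

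*Angpt2* had 14.6, 14.9, 13.9, 13.1 and 13.3 FPKM in the saline samples and 14.6, 14.9, 15.2, 14.5 and 15.1 in the StcE samples. The StcE samples sat together at the upper end of the saline range, and 2 of them lay above all saline samples. The log2 difference was 0.085 (95% interval 0.0063 to 0.16, limma adjusted p = 0.150), with means of 13.96 ± 0.811 and 14.9 ± 0.288 FPKM (SD, n = 5 each).

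**Figure D2:**
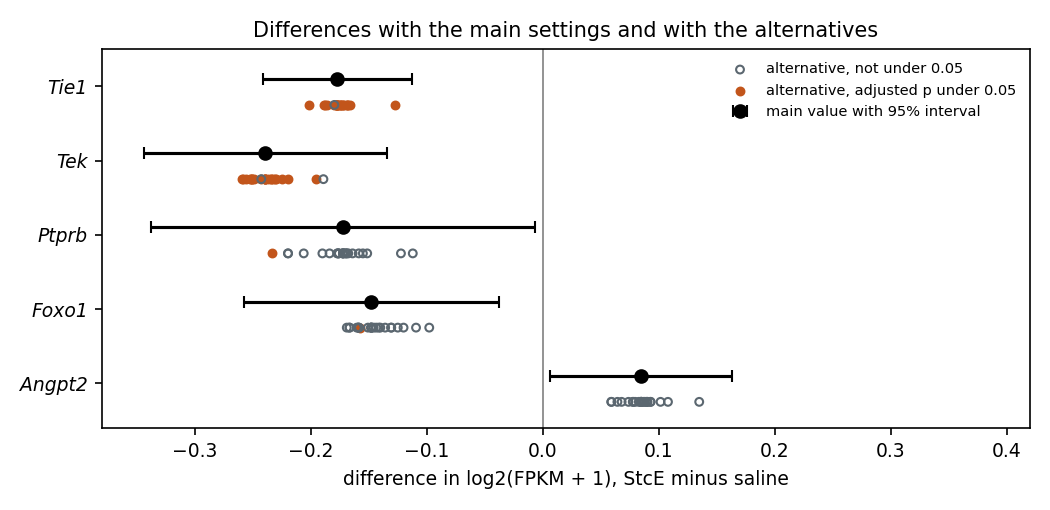
Difference in mean log2(FPKM + 1), StcE minus saline, for the 5 tested genes. Black points with bars are the main values with 95% intervals, and the small points under them are the 24 alternatives for each gene, filled where the limma adjusted p was under 0.05. All alternatives for *Tie1*, *Tek*, *Ptprb* and *Foxo1* lie below 0 and all those for *Angpt2* above 0, while the points past the threshold are almost all those of *Tie1* and *Tek*.

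The level of *Angpt2* relative to *Tek* was higher after StcE, and of the pair only *Tek* had passed its own test. The log2 ratio of *Angpt2* to *Tek* was -0.34 ± 0.066 with saline and -0.017 ± 0.10 with StcE (SD, n = 5 each), a difference of 0.32. The 5 saline samples lay between -0.46 and -0.30 and the 5 StcE samples between -0.12 and 0.14, so that the groups did not overlap (exact two-sided permutation test, p = 0.00794, 0.0238 after Benjamini-Hochberg adjustment over 3 ratios). In linear terms, the mean FPKM of *Angpt2* was 0.778 of that of *Tek* with saline and 0.985 with StcE. With each sample left out in turn the difference lay between 0.29 and 0.35 (the p-value, already the smallest that the test can give, could not show a change in strength). *Tek* alone also separated the groups, with a log2 difference of -0.24, against 0.085 for *Angpt2*. How many tested genes have a ratio to *Tek* that separates the groups was not computed. The p-value therefore does not show a change particular to this pair.

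The other pairs did not pass the test. The log2 ratio of *Tie1* to *Tek* was 2.84 ± 0.036 with saline and 2.90 ± 0.087 with StcE (exact permutation adjusted p = 0.25), and only without StcE replicate 2 did it pass, at a difference of 0.087 (exact permutation adjusted p = 0.0357). Without StcE replicate 1 the difference was 0.028 (exact permutation adjusted p = 0.389), against 0.062 with all samples. The log2 ratio of *Tie1* to *Ptprb* was 1.46 ± 0.060 with saline and 1.46 ± 0.15 with StcE (exact permutation adjusted p = 0.944).

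**Figure D3:**
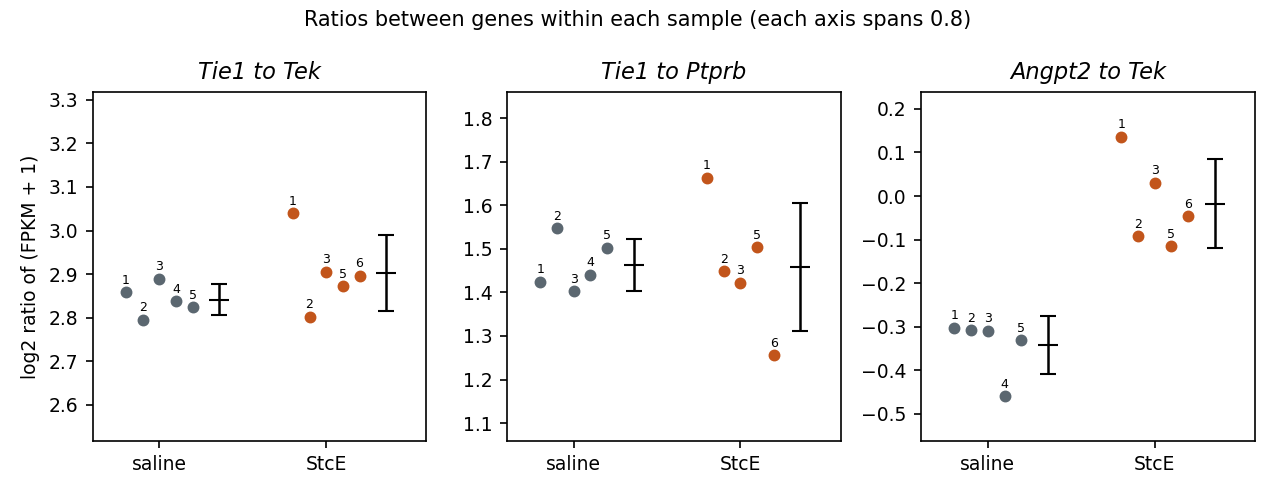
Log2 ratio of (FPKM + 1) between pairs of genes in each sample, saline in grey and StcE in orange, with replicate numbers and, beside the points, mean ± SD (n = 5). Each axis spans the same height but starts at its own value. The ratio of *Angpt2* to *Tek* separates the groups (at most -0.30 with saline, at least -0.12 with StcE), and the ratios of *Tie1* to *Tek* and to *Ptprb* overlap.

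The genes varied together to some extent within groups. StcE replicate 1 was the lowest StcE sample for *Tie1*, *Tek*, *Ptprb* and *Foxo1*, and saline replicate 5 was the lowest saline sample for *Tie1*, *Tek* and *Ptprb*. The mean log2(FPKM + 1) of the 10 endothelial markers was also lowest in saline replicate 5 among the saline samples (6.83, against 6.92 to 6.98 in the others), whereas StcE replicate 1, at 6.86, stood within the range of the StcE samples (6.81 to 6.92). The part of these shifts in the group differences was not tested. Variation between replicates was smallest for *Angpt2* in StcE samples (coefficient of variation 1.94%) and largest for *Ptprb* in StcE samples (12.2%).

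Genes with the most similar profiles were found by the root mean square difference of log2(FPKM + 1) over the 10 samples, each gene centred on its own mean. For *Tek* the nearest was *Flt1*, which encodes VEGF receptor 1 (0.032 per sample), followed by *Ablim1* and *Ece1*, which encode an actin-binding protein and the endothelin-converting enzyme. *Tie1* was nearest to *Mecom*, a transcription factor gene (0.023), then *Gaa* and *Rnf19a*. The profile of *Foxo1* was nearest to that of *Cdh5* (0.027), then *Smc1a* and *Man2a1*. *Ptprb* was nearest to *Utrn* (0.044), *Fat4* and *Pdzd2*, all genes of long proteins, and *Angpt2* to *Mycbp* (0.021), *Ciz1* and *Nsmce3*. The median distance to all tested genes was 0.12 for *Tie1* and 0.16 for *Tek*. These distances include the difference between the groups, so genes with a similar difference come out near. The log2 difference was -0.17 for *Mecom* beside -0.18 for *Tie1*, and -0.23 for *Flt1* beside -0.24 for *Tek*. Similarity within the groups was not measured.

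Genes that carry the signal from TEK were mostly near 0 change. Of 24 listed adaptors and kinases, 21 were tested, and their median log2 difference was 0.0070, against -6.6e-04 over all tested genes. Of the 21, 1 fell and 1 rose, where 6.41% of all tested genes fell and 5.52% rose. *Mapk3*, which encodes ERK1, fell from 139.9 ± 4.29 to 121.5 ± 2.35 FPKM (log2 difference -0.20, limma adjusted p = 4.8e-04). *Pak1*, a kinase of cytoskeletal regulation, rose from 14.6 ± 0.271 to 16.4 ± 0.559 FPKM (0.16, limma adjusted p = 0.00342), and the other 19 did not pass. Among these, *Nos3*, the endothelial nitric oxide synthase, had 287.4 ± 13.5 and 307.8 ± 5.999 FPKM (limma adjusted p = 0.0628), and *Akt1*, the main endothelial AKT, had 138.2 and 139.7 FPKM. The adaptor gene *Dok2* stayed under the filter at 0.217 FPKM with saline and 0.282 with StcE.

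Surface partners of the pathway include integrins that bind angiopoietins or TEK, and proteases that shed the receptors. Of the 7 tested, 1 fell, where 6.41% of all tested genes did, and the other 6 did not pass. The gene that fell was *Itga5*, the fibronectin receptor subunit, from 113.4 ± 1.69 to 102.1 ± 3.84 FPKM (log2 difference -0.15, limma adjusted p = 0.00442). Its partner *Itgb1* had 250.3 and 251.98 FPKM, and the sheddase gene *Mmp14* had 10.3 and 9.26 FPKM (limma adjusted p = 0.107). *Svep1*, which encodes a TIE1 ligand, was listed at or near 0 in all samples, with at most 0.00224 FPKM.

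Of 11 genes of phosphatases related to VE-PTP and of proteins that it binds or dephosphorylates, 4 fell, where 6.41% of all tested genes did. Their median log2 difference was -0.11, beside -0.074 for the 10 endothelial markers, with *Cdh5* in both lists, and whether the lists differ was not tested. Those that fell include *Jup* (plakoglobin, -0.17, limma adjusted p = 0.0209), *Fgd5* (an endothelial exchange factor, -0.14, adjusted p = 0.0372) and *Plcg1* (phospholipase C gamma, -0.13, adjusted p = 0.00919). The other 7 did not pass. VE-cadherin (*Cdh5*), the junction protein that VE-PTP binds, had 509.1 ± 25.9 FPKM with saline and 462.7 ± 22.3 with StcE without overlap between the groups, just short of the threshold (limma adjusted p = 0.0515). *Kdr*, which encodes VEGF receptor 2, had 88.1 ± 2.63 and 81.6 ± 6.14 FPKM (limma adjusted p = 0.138).

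Among the relatives of *Foxo1*, *Foxo3* fell from 10.0 ± 0.455 to 8.502 ± 0.346 FPKM (log2 difference -0.22, limma adjusted p = 0.00288). *Foxo4* had 5.63 ± 0.329 and 5.11 ± 0.220 FPKM (limma adjusted p = 0.0793), and *Foxo6* was at most 0.133 FPKM in any sample.

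Genes known to be induced by FOXO1, in endothelium or in other tissues, moved in both directions. How FOXO1 acts on each of them in bEnd.3 cells was not measured. Of the 17 tested, 3 rose, *Cited2*, a transcriptional coregulator (0.21, limma adjusted p = 0.0414), *Trib1*, a pseudokinase (0.16, adjusted p = 0.0318), and *Klf2*, a flow-responsive transcription factor of quiescent endothelium (0.15, adjusted p = 0.0219). *Gadd45a*, a stress-response gene, fell (-0.23, limma adjusted p = 0.0399), and the other 13 did not pass. Over all tested genes, 5.52% rose and 6.41% fell. The median log2 difference over the 17 was 0.078. Of the 3 genes listed as lowered by FOXO1 in endothelium or other tissues, *Myc* (0.089, limma adjusted p = 0.0319) and the cyclin gene *Ccnd1* (0.11, adjusted p = 0.0355) rose, and *Ccnd2* did not pass.

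Of 10 genes of transcription factors known at the *Tek*, *Tie1* or *Angpt2* promoters, 4 fell, beside 6.41% of all tested genes, and the other 6 did not pass. The median log2 difference was -0.090, beside -0.074 for the endothelial markers, and this difference between lists was not tested. *Epas1*, which encodes the hypoxia-inducible factor HIF-2α, fell the most, from 61.8 ± 4.08 to 47.8 ± 3.88 FPKM (-0.36, limma adjusted p = 0.00246). The ETS factor gene *Fli1* fell by 0.21 on the log2 scale (limma adjusted p = 5.3e-04) and the homeobox gene *Hhex* by 0.20 (adjusted p = 0.00229).

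**Figure D4:**
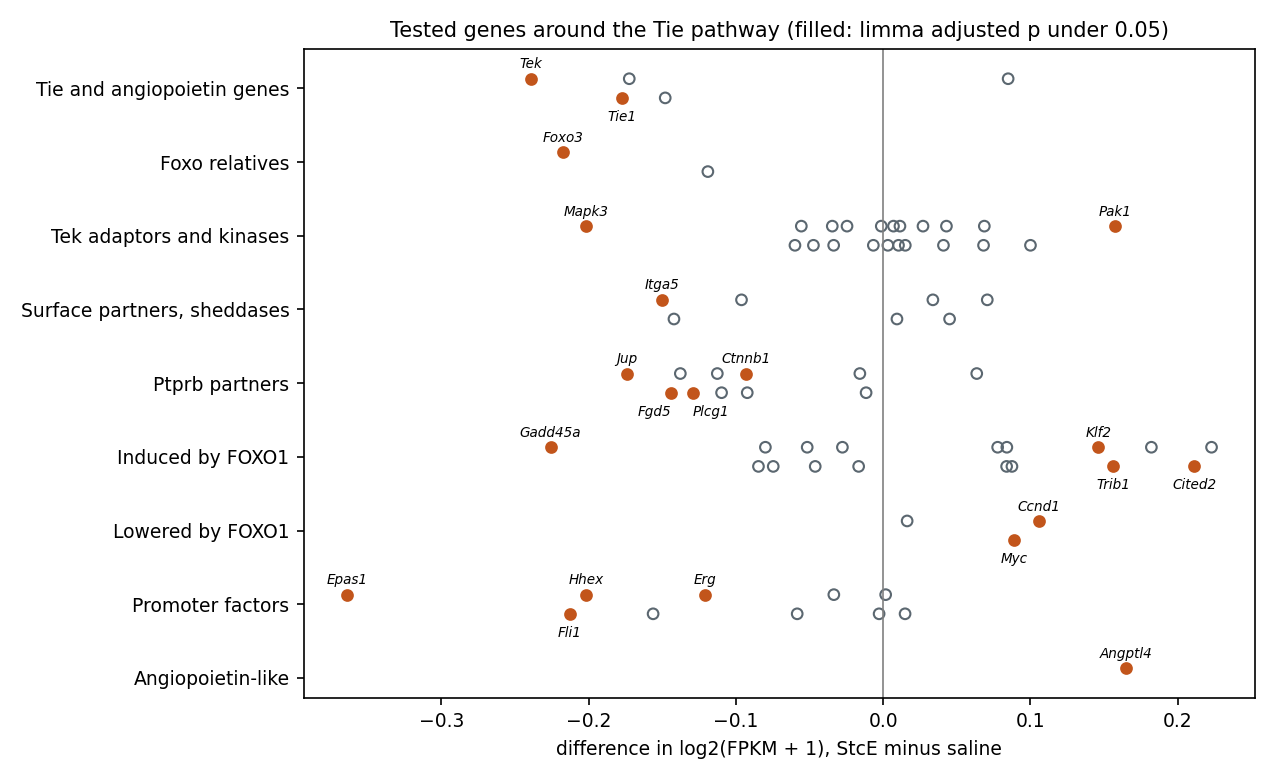
Difference in log2(FPKM + 1), StcE minus saline, for every tested gene of the group and of the lists around it, 1 point per gene. Filled points with names passed the threshold (limma adjusted p under 0.05) and open points did not. The partners of VE-PTP and the promoter factors lie mostly left of 0, the adaptors and kinases around 0, and *Epas1* is the point farthest to the left at -0.36.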

How the data were processed

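RNA of bEnd.3 cells was sequenced by the authors as strand-specific poly-adenylated libraries (paired-end), and trimmed reads were aligned to GRCm38 (mm10). The submitters' processing notes name HISAT2 2.0.5, featureCounts 1.5.0-p3 and DESeq2 1.32.0. The authors deposited FPKM per sample. Of 49898 rows, 22874 held no gene name and were left out.

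Fragments were recovered by multiplying FPKM by the GENCODE vM21 exon length and dividing by the value of 1 fragment, estimated per sample. Of the values above 0, 96.6% came out whole within 0.05 of a fragment. Floors from fragments cover counting error only. Pairs of replicates differed by more than sampling noise (chi-square per degree of freedom 3.21 to 9.08).

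The main test was limma 3.58.1 (R 4.3.3; eBayes with trend), fitted to log2(FPKM + 1) of the 11062 genes whose FPKM averaged 1 or more. Treatment was its single factor, and p-values were adjusted over all these genes by Benjamini-Hochberg (threshold 0.05). Single values were tested by exact two-sided permutation over 252 arrangements. The study's count test was not used because the unit is FPKM. The procedure was also run on simulated data with 200 changed genes. The outcome is not given here, so that run lends no weight to the calls. Ratios were differences of log2(FPKM + 1) within a sample.

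The genes, the lists and the tests were chosen with earlier results of these data known. The paper had already named *Tie1* and *Fli1* among the genes lower after StcE in these cells. Genes named in the text are the 6 of the group, the 3 nearest profiles of each tested one, up to 3 genes past the threshold in each direction per list, and *Foxo3*, *Foxo4*, *Angpt4*, *Kdr*, *Cdh5*, *Itga5*, *Itgb1*, *Nos3* and *Klf2*, with the highest gene of a marker list. *Akt1*, *Dok2*, *Mmp14*, *Svep1*, *Foxo6*, *Ccnd2*, *Vwf*, *Angptl8*, *Cspg4*, *Des* and *Ptprc* were added after their values were seen. Alternatives were other pseudocounts, filters, scalings and eBayes settings, array weights, a replicate block and leaving out each sample. After the data were seen, 4 more were added, namely voom, scaling by recovered fragments or by endothelial markers, and the unblocked fit of the 8 samples in the block.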

Additional observations from a re-analysis of the deposited data

Results flagged for a closer look

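Dixon's criterion was met in 2 of the 16 sets of 5 samples that were looked at, and about 0.8 would meet it by chance. In saline replicate 5, *Tie1* had 125.9 FPKM, whereas the other 4 samples of that group ranged from 135.4 to 139.0. In saline replicate 4, the log2 ratio of *Angpt2* to *Tek* was -0.46, whereas the others ranged from -0.33 to -0.30, and the sample lay on the side away from the StcE samples. Leaving out saline replicate 5 gave a difference of -0.20 for *Tie1*, and leaving out saline replicate 4 gave 0.29 for the ratio.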

How the results depend on the processing

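*Tie1*, *Tek*, *Ptprb*, *Foxo1* and *Angpt2* each kept the direction of their difference in 24 of 24 alternatives. *Tie1* was past the threshold in 23 of them and *Tek* in 22. With each sample left out in turn the log2 difference was -0.20 to -0.17 for *Tie1*, -0.26 to -0.20 for *Tek*, -0.23 to -0.11 for *Ptprb*, -0.17 to -0.11 for *Foxo1* and 0.064 to 0.11 for *Angpt2*, and 2 to 3 of the 5 genes passed. The ratio of *Angpt2* to *Tek* then differed by 0.29 to 0.35, that of *Tie1* to *Tek* by 0.028 to 0.087, and that of *Tie1* to *Ptprb*, which did not pass in any of them, by -0.056 to 0.046. That last ratio was reversed without saline replicate 2 (0.016), saline replicate 5 (0.0050), StcE replicate 3 (0.0043) or StcE replicate 6 (0.046).

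In a fit with a replicate block, limited to the 8 samples whose numbers occur in both groups, *Tie1* (-0.18, limma adjusted p = 0.0733) and *Tek* (-0.24, adjusted p = 0.0795) did not pass, leaving 0 of the 5 genes past the threshold and 3 at an unadjusted limma p under 0.05. The same 8 samples without the block kept both calls. Correlations of same-numbered samples' deviations from the group means were -0.097 to 0.054, and those of differently numbered samples were -0.059 to 0.098. Same-numbered samples were thus no more alike, but these values cannot show whether the cultures were handled in pairs. With voom on recovered fragments *Foxo1* passed (-0.16) and 3 genes in all. Relative to the endothelial markers *Tek* did not pass (-0.19), leaving 1, *Tie1* (-0.13, limma adjusted p = 0.0459). The cause was not tested for these changes. *Angpt1* had no value to recompute.

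Over all genes, 1320 passed. This count was 801 without a filter (27024 genes tested), 790 with an equal sum of FPKM, 691 relative to endothelial markers, 349 with the block, 793 without StcE replicate 3 and 838 without saline replicate 1. Depth limits *Angpt1*. For the other 5 genes, counting error was not set against the spread between replicates.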

Other observations

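Of the 8 angiopoietin-like and further angiopoietin genes examined, *Angptl4*, which encodes an inhibitor of lipoprotein lipase, passed the filter on low FPKM. It rose from 10.7 ± 0.299 to 12.1 ± 0.515 FPKM (SD, n = 5 each), a log2 difference of 0.16 (limma adjusted p = 0.00724), and every StcE sample lay above every saline sample, as did 4.85% of all tested genes. *Angptl8* was below the filter, at 0.617 ± 0.259 FPKM with saline and 0.822 ± 0.141 with StcE. The other 6 genes had group means of at most 0.290 FPKM.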
